A study of Mus musculus with 200 samples.

Results

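The 65 genes described here encode collagens, laminins, fibulins and 6 other proteins of the extracellular matrix, chosen by gene symbol from the 38406 genes of the count table. They comprise 44 collagen chains, 11 laminin chains, 4 fibulins, the nidogens Nid1 and Nid2, and Fn1, Sparc, Dcn and Lum. All 65 had at least 1 count, 61 had at least 10 and 34 had at least 100 over the 200 cells. Transcripts had been counted in single cells of the thymic medullary epithelium from 5-week-old B6xNOD females, and every mouse carried a GFP transgene that reports Aire. Cells were sorted as CD45-, Ly51-, MHCII+ and GFP+ and fell into 4 groups by Aire genotype, wild type (WT) or knockout (KO), and by GFP, high (GFPhi) or low (GFPlo). The WT mice gave 61 GFPhi and 39 GFPlo cells, and the KO mice 48 and 52. Where 4 values stand in a row they are in the order WT GFPhi, WT GFPlo, KO GFPhi, KO GFPlo. Because animals are not named in the labels, a group is a single sample here, and differences between groups were not tested.

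The extracellular matrix is the protein scaffold outside cells. Epithelia rest on a basement membrane, in which networks of laminin and collagen IV are joined by nidogens, while fibrillar collagens, fibronectin and small proteoglycans fill the connective tissue made mainly by fibroblasts. Medullary thymic epithelial cells transcribe genes of many other tissues to show them to developing T cells, partly under the control of Aire, so matrix genes can be read in them both as products of an epithelium and as antigens of other organs.

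The cells of the 4 groups summed to 3468109, 2260672, 3011900 and 1847240 counts, and totals per cell ran from 2429 to 370365. Levels are counts per 1000000 counts of the cells summed (CPM), with 95% intervals that cover counting error of sequenced tags only. Each cell carries the name of the primer of its well, of a kind called ls or umi, and each of the 30 primers occurred in 1 group only, so primer and group cannot be told apart. WT GFPlo cells had 6 primers and the other groups had 8 each, and the lowest, median and highest level over a group's primers are given as its spread. By sort date, the 4 groups had 23, 18, 9 and 22 cells on the first and 38, 21, 39 and 30 on the second. The 9 KO GFPhi cells of the first date had only the primers ls_10, ls_18 and umi_10. Date and primer are thus entangled in that group, and values by date do not repeat a ratio over the same primers. Aire transcripts were at 537, 244, 815 and 316 CPM in the 4 groups, and the deleted part of Aire is not named in the labels, so these transcripts give no check of the knockout. All 12 markers of thymic epithelium had counts, with a summed level of 3631 to 5401 CPM over the groups. Cells with more counts of leukocyte than of epithelial markers numbered 11, 7, 2 and 17.

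Matrix genes held 18564 counts, and each of the 200 cells had a count of at least 1 of them. Their summed level was 2319 CPM in the GFPhi and 1543 in the GFPlo group of WT, and 1488 and 1381 in those of KO. The excess of WT GFPhi cells lay in the 8 cells of the primer ls_13. Without these 8 cells the WT GFPhi level was 1407 CPM, and the ratio of KO to WT in GFPhi cells went from 0.641 (0.618–0.665) to 1.06 (1.01–1.10). Likewise the ratio of GFPhi to GFPlo in WT cells went from 1.503 (1.44–1.56) to 0.912 (0.872–0.953). The ratio of KO to WT in GFPlo cells was 0.895 (0.850–0.942) and that of GFPhi to GFPlo in KO cells 1.08 (1.03–1.13), and no ls_13 cell enters either. Median levels over primers were close, at 1434, 1471, 1390.3 and 1554 CPM, against lowest values of 392 to 1105 and highest values of 2474 to 11299. After each cell was thinned to 10000 counts, which left out 21 shallower cells, the median number of matrix genes with a count was 6, 6, 6 and 5, against 10, 11, 11 and 7.5 before thinning.

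Fibulin 1, a calcium-binding glycoprotein of basement membranes and elastic fibres, was the matrix gene with most counts, and nearly all of them came from 1 primer. Of the 3017 counts of Fbln1 (chromosome 15, 85205949–85286535, plus strand), 2840 or 94.1% lay in the 8 cells with primer ls_13. These 8 cells are all WT GFPhi, came from 8 different library pools and both sort dates, and all had Fbln1 counts, from 119 to 755 per cell. Their summed level was 8874 CPM (8551–9207), 18007 on the first date and 5478 on the second. Per cell it ran from 3786 to 98384 CPM with a median of 7892. The cell with the most Fbln1 counts, 755, had the lowest total of the 8, 7674 counts, and the cell with the highest total, 110669 counts, had 419. All 8 had more counts of epithelial than of fibroblast markers, with 14 to 485 against 0 to 19. Over all WT GFPhi cells these 2 lists summed to 4148 and 80.4 CPM. This ordering is thus that of the whole group and does not set the 8 cells apart.

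**Figure D1:**
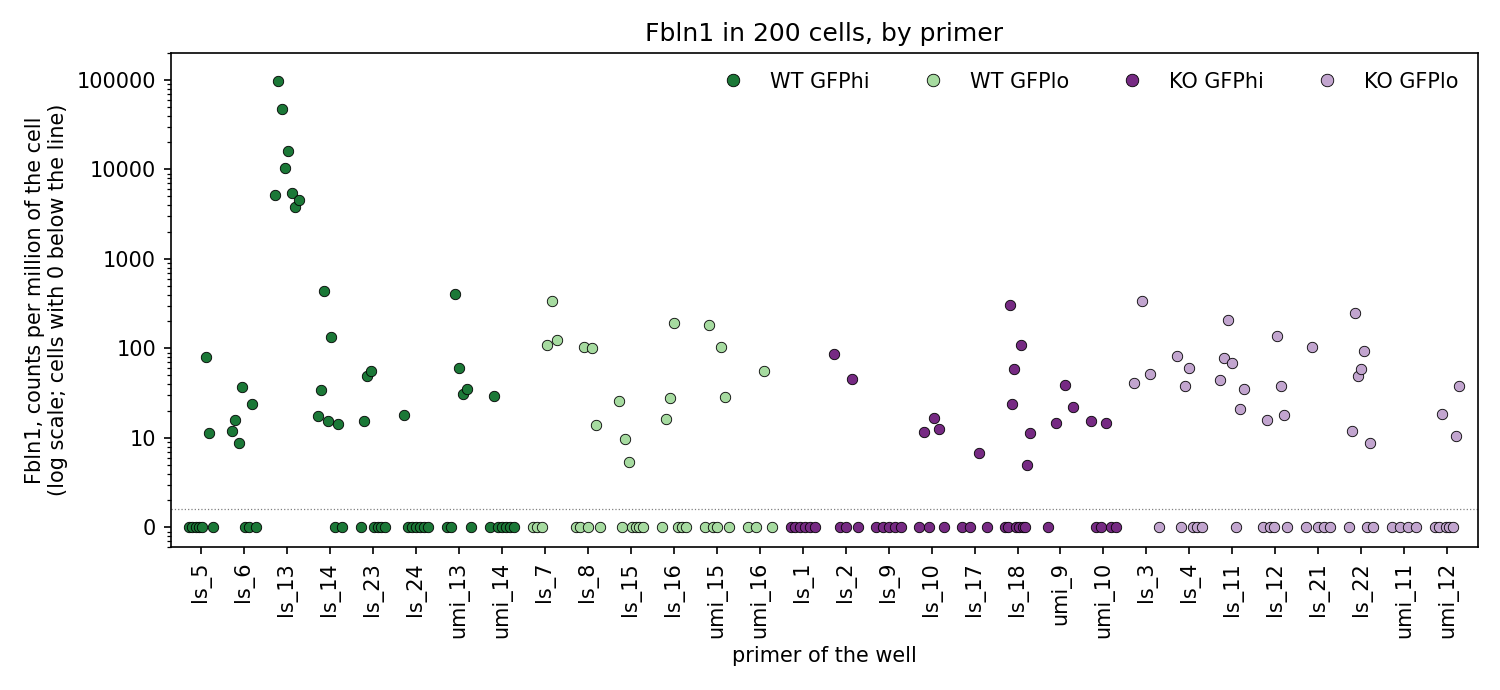
Level of Fbln1 in each of the 200 cells (points), in CPM of the cell on a log axis, by the primer of the well and coloured by group; cells with 0 counts lie below the dotted line. The 8 ls_13 cells lie between 3786 and 98384, and no other cell is above 433.9.

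In the other 53 WT GFPhi cells Fbln1 had 40 counts in 22 cells, a level of 12.7 CPM (9.08–17.3) and at most 6 counts in a cell. KO GFPhi cells had 28 counts in 17 cells, 9.30 CPM (6.18–13.4). With all cells Fbln1 was thus 89.3-fold lower (61.7–135) in KO than in WT GFPhi cells, and without the ls_13 cells the ratio was 0.732 (0.435–1.22), an interval that includes 1. WT GFPlo cells had 68 counts in 16 cells, 30.1 CPM (23.4–38.1), of which 34 lay in 1 cell, and KO GFPlo cells had 41 counts in 26 cells, 22.2 CPM (15.9–30.1). Between GFPhi and GFPlo in WT cells the log2 ratio of Fbln1 was 4.78 with all cells and -1.24 without the ls_13 cells. The primer umi_13, also in WT GFPhi, had Fbln1 at 33.1 CPM. Cells of other primers had Fbln1 counts in 72 of 154 cells in pools that hold an ls_13 cell and in 9 of 38 cells in pools that hold none, at 17.9 CPM (15.3–20.8) and 11.5 CPM (5.92–20). The 154 cells summed to 9220519 counts and the 38 to 1047369, so the 154 were deeper per cell. Their shares of cells with a count were not matched for depth. The part of primer, well position or genotype in the Fbln1 level of the ls_13 cells was not tested.

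Among all genes of the table this concentration was rare. Of 2106 genes with at least 1000 counts, 6 had at least 90% of them in 1 primer, and Fbln1 was the only one of these with counts in every cell of that primer. Of 4291 genes with at least 500 counts, 5 met both conditions, Fbln1 with Chrna3, Gm16246, Gm5535 and Insm2. The median gene with at least 1000 counts had 14.7% of them in its leading primer. The other fibulins had few counts. Fbln5, which helps elastic fibres assemble, had 3, 17, 19 and 1 counts in the 4 groups. Fbln2, a matrix adaptor, had 5, 8, 4 and 2, and Fbln7 had 2 counts in all.

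Some other matrix genes were also led by 1 primer or 1 cell. Over the 34 matrix genes with at least 100 counts, the leading primer held a median of 30.6% of the counts, and 12.04% for Col4a1, the lowest. Over all 10763 genes with at least 100 counts this median was 21.2%. It fell to 16.1% and 14.7% for genes with at least 500 and 1000 counts, and the 2 sets were not matched for counts. Of the 34 matrix genes, 5 had over 50% of their counts in 1 primer, namely Fbln1, Col13a1, Col15a1, Col1a1 and Col1a2. The last 4 of these also had over 50% in 1 cell. The shares of all genes past these marks were not computed. Apart from Fbln1, the network-forming collagen Col8a1 stood out, with 71 of its 81 counts in the 8 cells of primer ls_6, each of which had a count. Of the transmembrane collagen Col25a1, 43.4% of 53 counts lay in the same 8 ls_6 cells, again with a count in each. Like ls_13, ls_6 was used for WT GFPhi cells. Col5a2 and Col20a1 each had counts in 7 of the 8 ls_13 cells, at 366 and 216 CPM there against 13.98 and 13.02 in the other WT GFPhi cells.

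**Figure D2:**
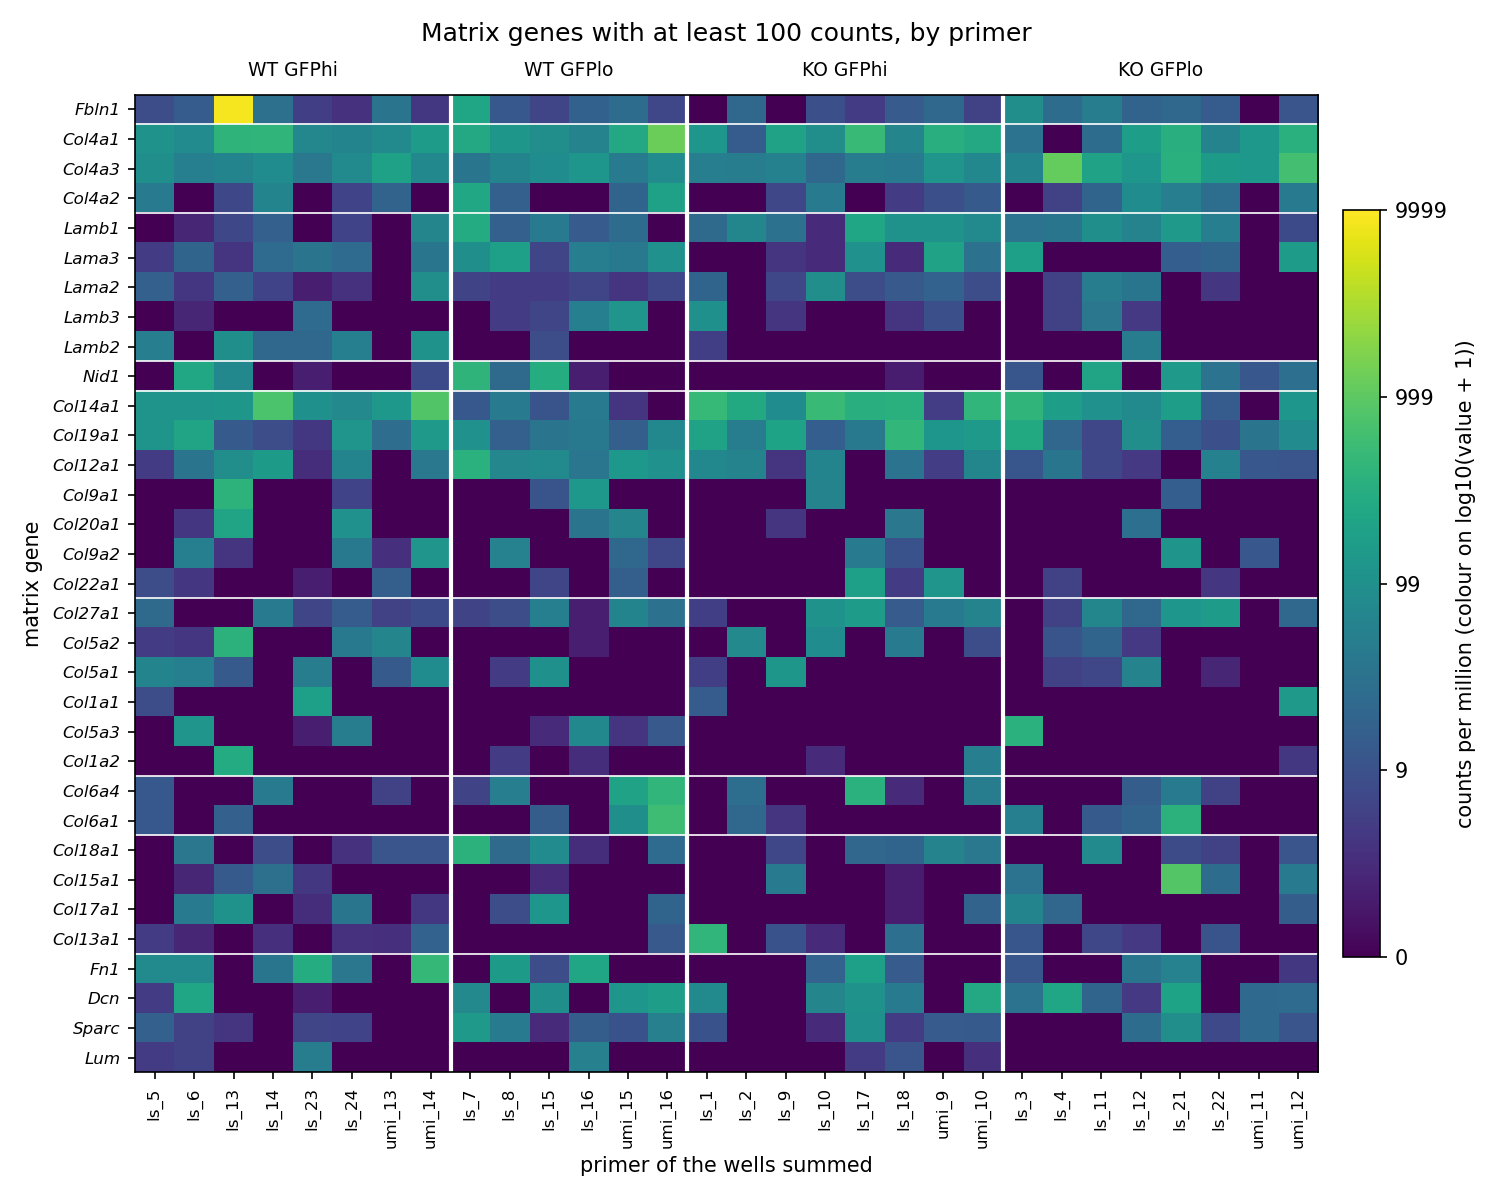
Level of 33 of the 34 matrix genes with at least 100 counts (one line of fields each, grouped by kind) in the cells of each of the 30 primers (columns, grouped by the 4 sorted groups), in CPM on a log10(value + 1) colour scale. Fbln1 in ls_13, at 8874, is the single brightest field, and most genes are bright in a few primers and dark in others of the same group.

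Comparing KO with WT in GFPhi cells asks which matrix genes differ with Aire genotype in the cells with the brighter Aire reporter. Of the 55 matrix genes that reached 10 counts over both groups, 23 were at least 2-fold lower in KO cells, against 29.1% of all genes with that many counts, and 12 were at least 2-fold higher, against 20%. The median log2 ratio was -0.48, and that of all genes -0.13. When the primer with most counts of a gene was left out in each group, for matrix genes and all other genes alike, 37 matrix genes had 10 counts, of which 10 were lower and 12 higher, against 26.3% and 19.8% of all genes, and the median was 0.20 against -0.07. That alternative was chosen after the data were seen. No matrix gene was lower or higher in every KO primer than in every WT primer, where 0.00665% of all genes were in each direction.

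**Figure D3:**
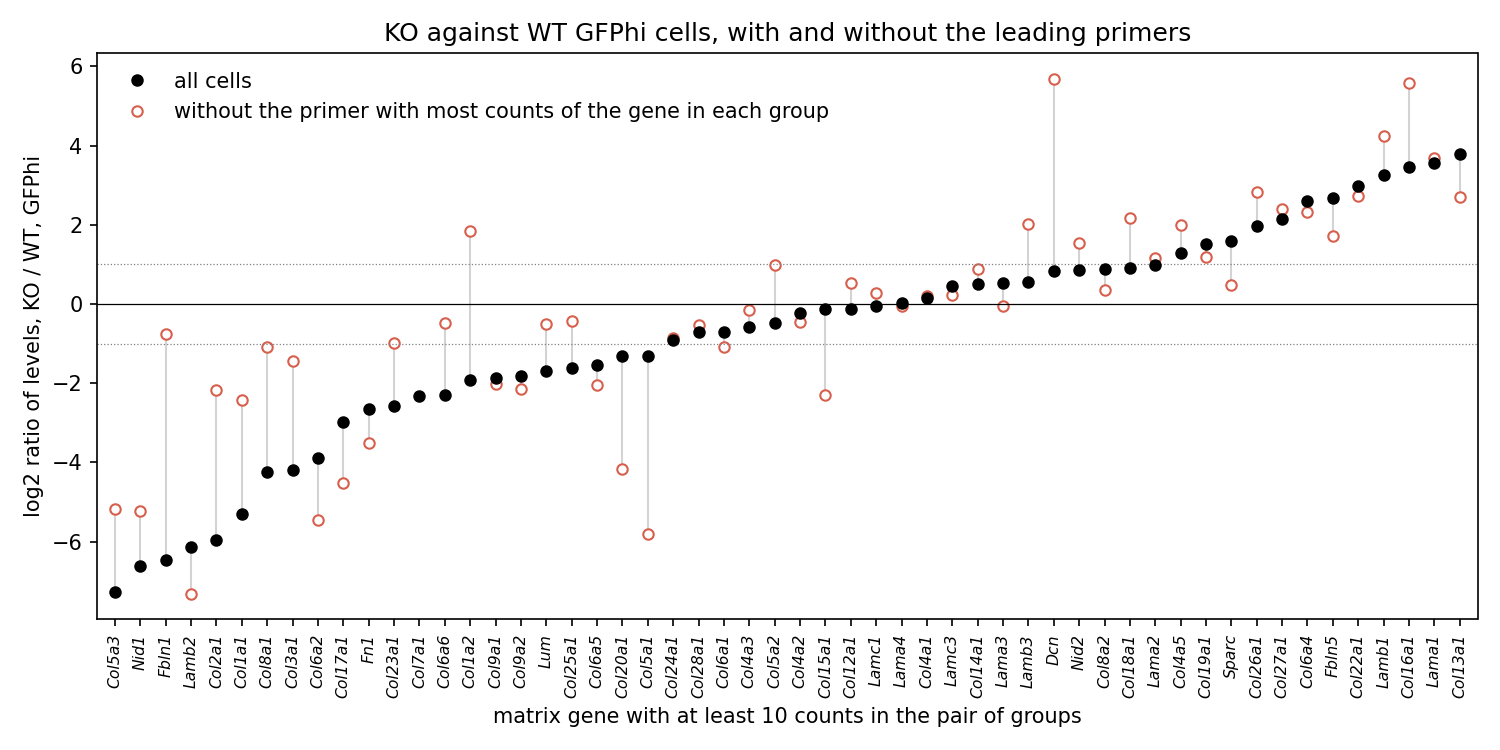
Log2 ratio of levels between KO and WT GFPhi cells (vertical axis) for 54 of the 55 matrix genes that reached 10 counts (horizontal axis), with all cells (black) and without each gene's leading primer in each group (open red); dotted lines mark 2-fold. Fbln1 moves from -6.46 to -0.76, while Nid1, Fn1, Lama1, Col27a1 and Col19a1 stay beyond 2-fold.

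Collagen IV is the network-forming collagen of basement membranes. Col4a1 and Col4a2 encode the chains of its most widespread form, and Col4a3, Col4a4 and Col4a5 those of the network known from the kidney glomerulus, where an end domain of the Col4a3 chain is the antigen of Goodpasture disease. Col4a1 (chromosome 8, 11198423–11312826, minus strand) was at 151 CPM in the GFPhi and 207 in the GFPlo group of WT, and 168 and 133 in those of KO, with counts in 114 of 200 cells. The primer levels of its 4 groups overlapped, with medians of 98.6, 193, 163 and 97.5 CPM. In KO GFPhi cells it was at 4.69 CPM on the first date, in 1 of 9 cells, and at 232 on the second, in 27 of 39. Col4a2 (chromosome 8, 11312805–11449287, plus strand) was at 13.3, 38.04, 11.3 and 35.2 CPM in the same order, with counts in 48 cells. It had a count in 35.1% of the cells with Col4a1 and in 9.30% of those without, but cells with Col4a1 were also deeper, with a median total of 46727 against 18657 counts. After thinning to 10000 counts these shares were 26.9% and 3.96%.

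The genes Col4a1 and Col4a2 start head to head, and the windows from 250 bases before to 50 bases after each start share 78 bases, shown here because the starts of both genes lie so close. The sequences are from RefSeq on GRCm38.p6, Col4a1 at chr8:11312777-11313076 on the minus and Col4a2 at chr8:11312555-11312854 on the plus strand, 5′ to 3′, with the shared bases (11312777 to 11312854) in capitals, as reverse complements of each other.
Col4a1: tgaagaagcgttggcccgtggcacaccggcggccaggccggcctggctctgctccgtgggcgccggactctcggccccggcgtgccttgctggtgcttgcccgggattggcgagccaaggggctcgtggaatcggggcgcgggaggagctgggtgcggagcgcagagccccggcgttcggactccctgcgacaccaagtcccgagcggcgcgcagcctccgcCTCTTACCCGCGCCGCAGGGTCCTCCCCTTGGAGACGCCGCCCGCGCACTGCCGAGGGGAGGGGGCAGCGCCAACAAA
Col4a2: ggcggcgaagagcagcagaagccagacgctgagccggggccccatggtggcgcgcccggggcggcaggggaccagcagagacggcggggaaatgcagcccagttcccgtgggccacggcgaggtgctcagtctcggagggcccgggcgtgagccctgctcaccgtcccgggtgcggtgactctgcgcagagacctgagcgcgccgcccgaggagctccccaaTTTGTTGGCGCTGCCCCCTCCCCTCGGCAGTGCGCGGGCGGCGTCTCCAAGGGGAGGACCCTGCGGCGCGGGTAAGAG
The motif GGGCGG, searched on both strands with its reverse CCGCCC, matched 1 time in the Col4a1 window and 3 times in that of Col4a2, and CCAAT (reverse ATTGG) matched 1 time in each. TATAAA (reverse TTTATA) matched in neither. In the RefSeq promoter windows found for 46 of the 65 matrix genes (52 windows), GGGCGG occurred in 57.7%, CCAAT in 32.7% and TATAAA in 9.62%, against 35.7%, 37.4% and 13.6% of all 32851 windows. The windows of matrix genes also had more G and C, with a median of 59.8% against 52.7%, which was not adjusted for. These matches describe letters and not sites in use.

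Col4a3 (chromosome 1, 82586921–82722059, plus strand) was detected in more cells than any other matrix gene with at least 100 counts, 179 of 200. It was at 77.9 CPM (68.8–87.7) in the GFPhi and 87.6 (75.8–101) in the GFPlo group of WT, and 52.5 (44.6–61.3) and 345 (319–373) in those of KO. KO GFPlo cells were thus highest, 3.94 times (3.35–4.64) the WT GFPlo level, and this held on both dates, with log2 ratios of 1.67 and 2.46. Its primers spanned 63.6 to 1148 CPM in KO GFPlo cells, with a median of 176, and 34.3 to 124 in WT GFPlo cells, with a median of 74.0, so the groups overlapped. The primer ls_4 held 36.1% of the KO GFPlo counts, and without the leading primer of each group the log2 ratio was 1.90. Leukocyte-marked cells, which were 17 of the 52 KO GFPlo cells, held 26.7% of all Col4a3 counts. Against KO GFPlo, KO GFPhi cells were at a log2 ratio of -2.71. Col4a4 starts 71 bases from Col4a3 on the other strand and had 10 counts in 9 cells, all of which also had Col4a3. The remaining chains Col4a5 and Col4a6 had 41 and 17 counts.

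Laminins are heterotrimers of an alpha, a beta and a gamma chain. Lama3 and Lamb3 encode chains of laminins that anchor epithelia to their basement membrane. Lama3 was at 20.2, 61.04, 29.2 and 41.7 CPM, and Lamb3 at 6.34, 38.5, 9.30 and 4.33. The Lama3 primers of all 4 groups overlapped, and spanned 0 to 34.8 CPM over the GFPhi and 5.96 to 179 over the GFPlo primers of WT. Leukocyte-marked cells held 48.3% of all Lamb3 counts.

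Among the other chains, Lamb1, a widely used beta chain, was at 8.65, 42.5, 83.3 and 50.9 CPM. The KO to WT log2 ratio of Lamb1 in GFPhi cells was 3.25, but all 251 KO counts came from the second date, and on the first date, with 0 KO and 7 WT counts, it was -3.45. Lama1, the alpha chain best known from the embryo, had few counts, 2 and 1 in the GFPhi and GFPlo groups of WT, and 25 and 4 in those of KO. The 25 counts of KO GFPhi came from 13 cells. Its KO to WT ratio in GFPhi cells was 14.4 (3.59–125), and KO was higher on both dates, with 4 counts in 3 of 9 cells on the first and 21 in 10 of 39 on the second. Of the 8 KO GFPhi primers 6 had Lama1 counts, and of the 8 WT GFPhi primers 2 did. Lamb2, a beta chain of muscle and kidney, had 120, 4, 1 and 13 counts in the order of the groups, in 19, 3, 1 and 2 cells, and was highest in WT GFPhi cells, where 6 of 8 primers had counts. All of its 138 counts came from the second date, and on the first no group had any. Lama2, the alpha chain of muscle, was at 12.1, 4.87, 23.9 and 11.4 CPM, with 62.5% of the KO GFPhi counts in primer ls_10.

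The nidogens bind laminin to collagen IV. Nid1 (chromosome 13, 13437551–13512269, plus strand) had 168, 228, 1 and 84 counts in the 4 groups, from 8, 16, 1 and 13 cells. KO GFPhi cells were thus nearly without it, at 0.332 CPM (0.00841–1.85), against 48.4, 101 and 45.5 CPM in the other groups. Of the 8 KO GFPhi primers 7 had no Nid1 count, but so had 4 of the 8 WT GFPhi primers, and 82.1% of the WT GFPhi counts lay in 1 cell. Against WT, the KO GFPhi level of Nid1 was 146-fold lower (25.8–5797), a log2 ratio of -6.61, and without the leading primers it was -5.23. By date this log2 ratio was -7.71 on the first, with 0 KO counts, and -4.00 on the second. Between GFPhi and GFPlo in KO cells it was -6.52, with -3.14 on the first and -6.65 on the second date. Nid2 had 25, 10, 40 and 4 counts.

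Collagens that decorate fibrils held the largest share of the matrix counts of KO GFPhi cells among the 9 kinds of member. The 9 such chains summed to 664 CPM (635–694) there, 44.6% of the matrix counts, against 450.1 CPM (428–473) and 250.4 (230.2–272) in the GFPhi and GFPlo groups of WT and 192 (173–213) in KO GFPlo cells. Col14a1 (chromosome 15, 55307750–55520803, plus strand), which regulates fibril growth in skin and tendon, was at 235 CPM (219–252) in the GFPhi and 24.8 (18.7–32.2) in the GFPlo group of WT, and 331 (311–353) and 97.4 (83.7–113) in those of KO. It was high in GFPhi cells of both genotypes, with counts in 43 of 61 and 38 of 48 cells, against 14 of 39 and 24 of 52 GFPlo cells. In WT cells Col14a1 was 9.50 times (7.24–12.7) as high in GFPhi as in GFPlo cells. Its lowest GFPhi primer, at 75.9 CPM, was above its highest GFPlo primer, at 44.1, in WT cells. Of the matrix genes with 10 counts it was the only one in any of the 4 comparisons whose primers did not overlap, and 9 of 15064 genes, 0.0597%, were higher in every WT GFPhi than in every WT GFPlo primer. On the first date the WT groups were at 376 and 14.7 CPM, and on the second at 164 and 34.1. In KO cells GFPhi was 3.40 times (2.90–4.01) as high as GFPlo, with primers of 4.29 to 509 against 0 to 413 CPM that overlapped. In thinned cells Col14a1 had a count in 52.7%, 21.9%, 59.1% and 35.4% of the cells of the 4 groups. Several annotated genes overlap Col14a1, among them 1700040F17Rik on the other strand, and the counting is not stated to use strand.

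**Figure D4:**
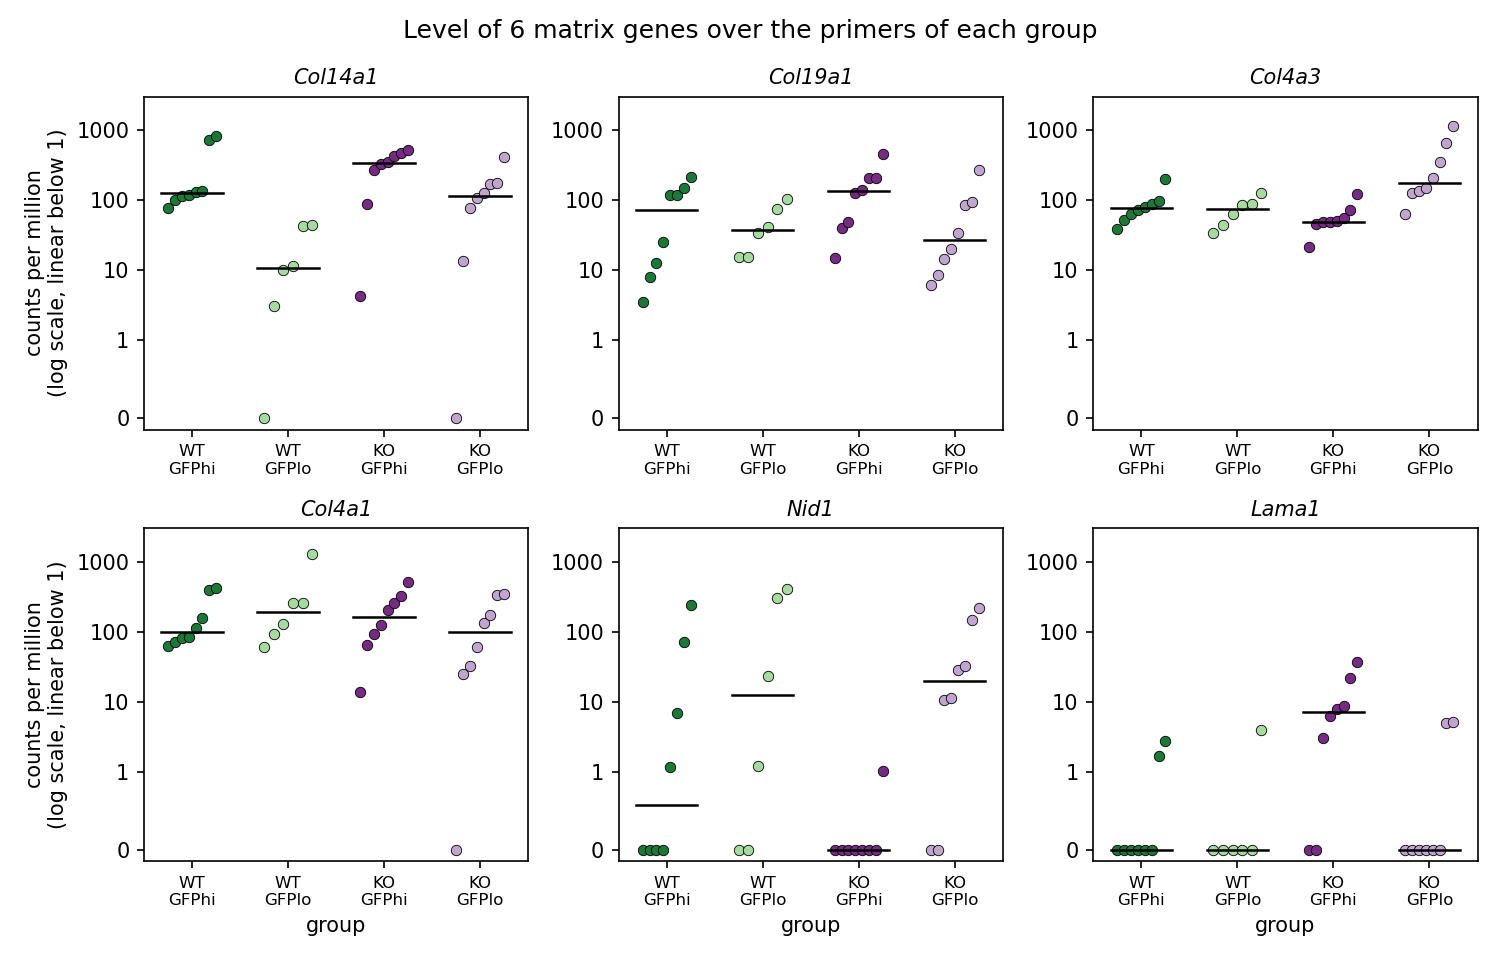
Level of 6 matrix genes in the cells of each primer (points) in CPM, on an axis that is log above 1 and linear below, for the 4 groups; black lines are medians over primers. For Col14a1 the WT GFPhi points, from 75.9 to 807, lie above all WT GFPlo points, of which the highest is 44.1, and for the 5 other genes the points of all groups overlap.

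Col19a1 (chromosome 1, 24261890–24587472, minus strand), a collagen of basement membrane zones in muscle and brain, was at 76.1, 39.8, 218 and 48.7 CPM in the 4 groups. KO GFPhi cells were highest, at 2.87 times (2.48–3.32) the WT GFPhi level (log2 ratio 1.65 on the first and 1.46 on the second date). Primer ls_18 held 66.8% of the KO GFPhi counts, with a count in all 12 of its cells, and without the leading primers the log2 ratio was 1.18. The 9 KO GFPhi cells of the first date had only the primers ls_10, ls_18 and umi_10, so that date's ratio is not independent of ls_18. The primer medians were 71.3, 37.1, 133 and 26.8 CPM in the same order, and the primers of all groups overlapped. Col12a1, a relative of Col14a1 in tendon and skin, was at 41.5, 93.3, 38.2 and 25.98 CPM, and the log2 ratio of KO to WT in GFPlo cells was -1.83, at -0.54 and -3.43 by date. Col16a1 had 62 counts in 10 KO GFPhi cells against 6 in 3 WT GFPhi cells, a ratio of 11.9 (5.17–33.7). Of those 62 counts 59.7% lay in primer umi_9, and KO GFPlo cells had 0. Col22a1, of the junction between muscle and tendon, had 78 counts in 8 KO GFPhi cells and 3 to 11 in the other groups, with 58.97% of the 78 in ls_17. The cartilage chain Col9a1 had 274 counts in 11 cells, 98.4% of its WT GFPhi counts in ls_13 and 95.8% of its WT GFPlo counts in ls_16. Col20a1 had 110, 49, 38 and 8 counts.

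Fibrillar collagens, the rope-forming collagens of connective tissue, were at 207, 95.5, 105 and 140 CPM as a sum of 11 chains. The chains of collagen I, the main product of fibroblasts, were found in few cells. Col1a1 had counts in 10 cells, and 93.6% of its 157 WT GFPhi counts lay in 1 cell. Leukocyte-marked cells held 76.1% of all 201 Col1a1 counts. Col1a2 had counts in 12 cells, 93 of 118 in 2 cells with primer ls_13. Both chains were found together in 1 cell. Col3a1, which accompanies collagen I, had 10 counts, all in 4 WT GFPhi cells. Col5a2, which sets fibril width, was at 46.4 CPM in the GFPhi and 0.442 in the GFPlo group of WT, and 33.2 and 3.25 in those of KO. It was higher in GFPhi than in GFPlo cells of both genotypes, with log2 ratios of 6.13 in WT, 4.41 without the ls_13 cells, and 3.25 in KO. In KO the first date alone gave -2.20, from 1 GFPhi and 5 GFPlo counts. WT GFPlo cells had a single Col5a2 count, against 161 in 19 WT GFPhi cells, a ratio of 105 (18.6–4171). Its partner Col5a1 was at 35.5, 22.6, 14.3 and 10.8 CPM. Col5a3 had 89 counts in 7 WT GFPhi cells and 0 in KO GFPhi cells, at least 25.8-fold lower with KO set at 3 counts over the group, and 79.8% of the 89 counts lay in ls_6. Col27a1, a cartilage collagen, was at 10.7, 24.3, 47.5 and 72.0 CPM. Its KO to WT ratio in GFPhi cells was 4.45 (3.08–6.57), or on the log2 scale 2.64 and 1.97 on the 2 dates, and 2.41 without the leading primers, and the primers overlapped at 0 to 163 against 0 to 44.96 CPM.

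Collagen VI, which forms beaded filaments around cells, summed to 47.6, 132, 47.1 and 68.8 CPM. Col6a4 was at 6.06 CPM in the GFPhi and 65.9 in the GFPlo group of WT, and 37.5 and 7.04 in those of KO, and the highest primer held 46.2% to 78.8% of the counts of a group. Col6a1 had 130 counts in 5 WT GFPlo cells, 70.8% of them in 1 cell, and 63 in 5 KO GFPlo cells, 81.0% of them in 1 cell. Among collagens of cell surfaces and basement membranes, Col18a1, the source of endostatin, was at 9.52, 52.2, 17.9 and 10.8 CPM. Col17a1, of the hemidesmosome of skin, had 76, 68, 8 and 14 counts. Its relative in the skin anchor, Col7a1, had 17 counts, 14 of them in 4 WT GFPhi cells with primer umi_13. Leukocyte-marked cells held 82.4% of all Col7a1 counts. Col15a1 had 146 counts in 8 KO GFPlo cells against 1 in WT GFPlo cells, and 73.3% of the 146 lay in 1 cell. Its KO to WT ratio in GFPlo cells was 179 (31.6–7105), with a log2 ratio of 6.90 over both dates. All 146 KO GFPlo counts came from the first date, and on the second, with 0 KO and 1 WT count, the log2 ratio was -1.58. Col13a1, a transmembrane collagen of the neuromuscular junction, had 125 counts in KO GFPhi cells, 75.2% in 1 cell, against 10 in WT GFPhi cells. Col8a1 had 76 counts in GFPhi and 0 in GFPlo cells of WT mice, at least 16.5-fold higher with WT GFPlo set at 3 counts. Col26a1 had 47 counts in 9 WT GFPlo cells and 2 to 8 in the other groups, and 62.7% of all its counts lay in leukocyte-marked cells. Without those cells its log2 ratio between GFPhi and GFPlo in WT was -2.55 in place of -4.87.

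Fibronectin (Fn1, chromosome 1, 71585520–71653200, minus strand), which links collagens to integrins, was at 139 CPM (127–152) in the GFPhi and 104 (91.5–119) in the GFPlo group of WT, and 21.9 (16.9–27.9) and 10.8 (6.61–16.7) in those of KO. Both WT groups were thus above both KO groups. Between KO and WT the log2 ratio of Fn1 was -2.66 in GFPhi cells, at -7.27 and -1.26 by date, and -3.24 in GFPlo cells, at -1.46 and -4.93 by date. Without leukocyte-marked cells it was -3.08 in GFPhi and -1.17 in GFPlo cells. With levels standardised over the library pools that the groups shared, it was -1.88 in GFPhi and -3.29 in GFPlo cells. Single cells held 45.96% and 67.8% of the WT GFPhi and WT GFPlo counts, and primers overlapped, at 0 to 466 CPM in WT GFPhi and 0 to 179 in KO GFPhi cells. Sparc, which binds collagen, was at 4.33, 26.5, 13.3 and 15.7 CPM in the 4 groups. The WT log2 ratio of Sparc between GFPhi and GFPlo was -2.58, at -1.93 and -2.96 by date. Decorin (Dcn), a proteoglycan that binds collagen fibrils, was at 40.7, 57.9, 72.4 and 49.8 CPM, with counts in 8, 12, 24 and 12 cells. Of the WT GFPhi counts of Dcn, 98.6% lay in primer ls_6. Lumican (Lum), of the same family, had 46, 46, 12 and 0 counts, and 1 cell held 97.8% of those of WT GFPlo.

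In GFPlo cells, KO against WT, 48 matrix genes had 10 counts, of which 18 were at least 2-fold lower, against 27.3% of all genes, and 11 at least 2-fold higher, against 23.6%. The median log2 ratio was -0.65 and that of all genes -0.05. Between GFPhi and GFPlo in WT cells, 55 genes had 10 counts, with 19 lower in GFPhi, against 24.2%, and 20 higher, against 27.6%, and medians of 0.32 and 0.05. In KO cells, 52 genes had 10 counts, with 16 lower in GFPhi, against 26.1%, and 19 higher, against 24.3%, and medians of 0.46 and -0.03. Without each gene's leading primers, KO against WT GFPlo had 26 such genes, 10 lower (23% of all genes) and 4 higher (26.8%), GFPhi against GFPlo in WT had 36, 15 lower (19.7%) and 12 higher (30.8%), and in KO 28, 6 lower (23.5%) and 13 higher (26%). Apart from Col14a1 no matrix gene had primers of the 2 groups apart. Over all genes, the shares with every primer lower or higher were 0.0144% and 0.0216% in KO against WT GFPlo, 0.073% lower in GFPhi against GFPlo of WT, and 0.0144% and 0.036% in that of KO. The 4 comparisons share groups in pairs, so their counts are not independent of each other.

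Genes that serve the matrix were followed in 4 lists. Of 22 genes of collagen folding and crosslinking, all had counts, and their summed level was 952, 1005, 771 and 728 CPM in the 4 groups. Of those with 10 counts in a pair, 2 of 19 were 2-fold lower and 5 higher in KO than in WT GFPhi cells, where 29.1% and 20% of all genes were. In GFPlo cells 6 of 18 were lower and 6 higher, against 27.3% and 23.6% of all genes. Without the leading primers, 1 of 17 was lower and 8 higher in GFPhi, against 26.3% and 19.8% of all genes. In GFPlo 4 of 14 were then lower and 3 higher, against 23% and 26.8%. Their collagen chaperone Serpinh1 was at 25.95, 50.9, 25.9 and 7.04 CPM. The 21 matrix receptors summed to 1141, 3433, 1154 and 1594 CPM, and the WT GFPlo excess came from the syndecan Sdc4, with 73.8% of its counts in primer ls_15. Without Sdc4 the sums were 1019, 1453, 1069 and 1353. Of the receptors with 10 counts, 7 of 17 were 2-fold lower and 1 higher in KO than in WT GFPhi cells, against 29.1% and 20% of all genes. In GFPlo cells 4 of 17 were lower and 5 higher, against 27.3% and 23.6%. Without the leading primers, 5 of 15 were lower and 1 higher in GFPhi, against 26.3% and 19.8% of all genes. In GFPlo 2 of 13 were then lower and 3 higher, against 23% and 26.8%. The laminin receptor chain Itga6 was at 304, 450.3, 537 and 374 CPM. Of the 18 matrix proteases and inhibitors, 12 had 10 counts in the GFPhi pair, of which 7 were lower in KO and 1 higher, against 29.1% and 20% of all genes. In the GFPlo pair 16 had them, of which 7 were lower and 1 higher, against 27.3% and 23.6% of all genes. Without the leading primers, 5 of 11 were lower and 1 higher in GFPhi, against 26.3% and 19.8% of all genes, and 5 of 9 lower and 0 higher in GFPlo, against 23% and 26.8%. Among 25 other genes of basement membranes and elastic fibres, the adhesion-modulating glycoprotein Tnc held 87.5% of the counts and was at 709, 1055, 3220 and 639 CPM. Tnc thus had its highest level in KO GFPhi cells, with a count in all 48 of them. It also had a count in 57 of 61 WT GFPhi, 36 of 39 WT GFPlo and 43 of 52 KO GFPlo cells. The KO GFPhi primer ls_18 held 23.6% of all Tnc counts, and the spread of Tnc over primers and dates is not given here. Of the 25 genes 17 had 10 counts in the GFPhi pair, of which 4 were lower and 4 higher in KO, against 29.1% and 20% of all genes. In the GFPlo pair 15 had them, of which 5 were lower and 6 higher, against 27.3% and 23.6% of all genes. Without the leading primers, 4 of 14 were lower and 4 higher in GFPhi, and 3 of 11 lower and 6 higher in GFPlo. The shares of all genes were then 26.3% and 19.8% in GFPhi, and 23% and 26.8% in GFPlo.

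Markers of other cell types that the sort could hold were summed in the same way. The 12 fibroblast markers summed to 80.4, 216, 51.8 and 342 CPM in the 4 groups, of which the actin-binding Gsn held 75.6%, and without it to 46.1, 29.6, 28.6 and 35.7. Mgp and Twist1 were at 0 in every cell. The 10 endothelial markers summed to 34.6 to 63.3 CPM, with Cldn5 and Egfl7 at 0. The 8 markers of pericytes or smooth muscle summed to 546, 1426, 1106 and 684 CPM, led by Rgs5 with 58.5%, and without it to 370, 458, 409 and 259. The 4 mesothelial markers summed to 33.2 to 79.0 CPM, 98.1% of it Msln, with Upk3b at 0. The 24 leukocyte markers summed to 7440, 5837, 1364 and 3503 CPM, led by Igj with 56.6%. Without Igj they summed to 2139, 1804, 1274 and 3334 CPM, and KO GFPlo cells were then highest. Of these markers, Cd52 had counts in 190 cells, Laptm5 in 165 and Ptprc in 58. The part of such other cell types in the levels of matrix genes was not tested, beyond the values without leukocyte-marked cells.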

How the data were processed

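The authors deposited counts of tags per gene for each of the 200 cells, whole numbers with no normalization, as the values show. The submitters' processing notes name mm10 as genome and, as tools, HTSeq, SAMtools 0.1.19, Picard 1.79 and TopHat, also as TopHat2. The notes do not say whether identifiers were collapsed, and totals exceeded the deposited identifier count in 40 cells. Groups came from the labels, and sort dates, primers and pools from the deposited metadata and labels. No cell was filtered and no doublet step was made, and all counts of a group were summed. Ratios carry exact conditional binomial and levels exact Poisson 95% intervals, and log2 ratios have 0.5 count added to each sum. A gene was read as lower or higher at 2-fold where both groups together had 10 counts. With 1 sample a group no test was made. Gene positions are from GENCODE M21 on mm10. The 65 genes and all lists were chosen with earlier results of these data known, and 1 of the genes enters the counts but is not reported here. Genes were named if among Fbln1, Fn1, Sparc, Dcn, Lum, Nid1 and Nid2, the 20 with most counts, or the 3 highest and 3 lowest ratios of each comparison with at least 20 counts over both groups and counts in 5 cells of the higher one, and other genes were named after their values were seen. Alternatives were each sort date, TMM scaling with edgeR 4.0.16 in R 4.3.3, per-cell means, subsets of cells and primers, standardisation over pools, and no minimum count. The script was tested on simulated counts. The scripts ran on Python 3.11.15 with scipy 1.17.1, pandas 2.3.3, matplotlib 3.10.9 and numpy 2.4.6.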

Additional observations from a re-analysis of the deposited data

How the results depend on the processing

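No paired analysis was possible because replicate numbers only name cells and pair none across groups. All 4 groups occur in 11 of the 12 library pools, each of 1 date, so levels were also standardised over shared pools. That choice, leaving out ls_13 and leaving out each gene's leading primer were chosen after the data were seen. The log2 ratio of the summed matrix genes between KO and WT GFPhi cells, -0.64, was -1.39 and -0.23 by date, -0.59 with TMM, -1.58 with per-cell means, -1.001 without leukocyte-marked cells, -0.53 without the leading cells, -0.79 with ls primers, 0.081 without ls_13, 0.12 without leading primers and -0.57 over pools. In GFPlo cells, -0.16 became 0.26 and -0.47 by date, -0.038 with per-cell means, 0.10 without leukocyte-marked cells, -0.015 with ls primers and -0.47 without leading primers. Between GFPhi and GFPlo in WT, 0.59 became 1.40 and 0.017 by date, 1.54 with per-cell means, 0.84 without leukocyte-marked cells, 0.88 with ls primers, -0.13 without ls_13 and -0.36 without leading primers. In KO, 0.11 became -0.25 and 0.25 by date, 0.23 with TMM, which moves all genes of that pair alike, -0.0028 with per-cell means, -0.27 without leukocyte-marked cells, 0.23 without leading primers and 0.21 over pools. Without leading primers, where fewer genes have 10 counts, the counts of lower genes went from 23 to 10 and from 18 to 10 in KO against WT, GFPhi and GFPlo, and from 16 to 6 in GFPhi against GFPlo of KO, and those of higher genes from 11 to 4 in KO against WT GFPlo and from 20 to 12 in GFPhi against GFPlo of WT. The first date alone gave 7 of 31 higher (25.02% of all genes) in place of 12 of 55 in KO against WT GFPhi, 22.6% in place of 21.8%. In GFPhi against GFPlo of KO it gave 10 lower and 8 higher of 21 (34.8% and 26.9% of all genes) in place of 16 and 19 of 52, and ls primers gave 12 of 49 lower (24.7% of all genes) in place of 19 of 55 in WT. Over pools, 26 of 28 named ratios kept within their counting interval and none changed sign, with Fn1 at -1.88 in KO against WT GFPhi and Col14a1 at 2.00 in GFPhi against GFPlo of KO outside it. Of 279 values for these 28, 207 kept within the interval, 67 left it and 5 changed sign: Lamb1 (-3.45, first date, KO against WT GFPhi), Col15a1 (-1.58, second date, KO against WT GFPlo), Col5a2 (-2.20, first date, GFPhi against GFPlo of KO) and Fbln1 (-1.24 without ls_13, -0.14 without leading primers, GFPhi against GFPlo of WT). The values by date among these rest on 0 against 7 counts for Lamb1, 0 against 1 for Col15a1 and 1 against 5 for Col5a2. The cause of these moves was not tested. Depth limits genes of few counts, and amplification of tags is not covered by the intervals.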

Other observations

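Several matrix genes lie next to each other in the genome, and their counts were set side by side as values. Col9a1 and Col19a1 lie 9205 bases apart on chromosome 1, and 9 of the 11 cells with a count of the cartilage chain Col9a1 also had Col19a1, which was found in 127 of 200 cells. Dcn and Lum, proteoglycan genes 46984 bases apart on chromosome 10, had counts in 56 and 11 cells, 5 of them shared. In the collagen VI cluster of chromosome 9, Col6a5 and Col6a4 had counts in 16 and 34 cells, 1 of them shared, and Col6a6 and Col6a5 in 17 and 16 cells, 4 of them shared. Deeper cells have more genes with a count, so shared cells are not a measure of shared control.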
